A study of Mus musculus with 18 samples.

Results

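The antioxidant, NRF2 and metallothionein genes are a set of 10 genes, Nfe2l2, Nqo1, Txnrd1, Srxn1, Hmox1, Gclc, Gclm, Slc7a11, Mt1 and Mt2, taken by symbol from the 54347 genes of the count table. All 10 were found and all 10 passed the filter on low counts, as did 14949 genes in total. They were followed in wt1-SAM cells, immortalised mouse brown preadipocytes with a stably expressed CRISPR activation system (SAM), a single cell line used here without any guide RNA named in the labels. Every culture was differentiated in the same media, which held rosiglitazone throughout and insulin, dexamethasone, indomethacine, IBMX and T3 at induction, and was reverse transfected on day 4 with 1 of 3 locked nucleic acid antisense oligonucleotides (LNAs): the non-targeting ctrlA, or LNA1 or LNA2 against the long non-coding RNA Gm15551. Cells were harvested on day 7, either unstimulated or after 24 h of β-adrenergic stimulation by isoproterenol (1 µM), which mimics the effect of cold on brown fat. The 6 groups of LNA and stimulation held 3 polyA RNA libraries each, numbered 2, 3 and 4, which makes 18 libraries. The labels do not say whether the numbers stand for separate cultures, so that p-values measure the spread between these libraries, which may be technical.

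NRF2, the product of Nfe2l2, is a transcription factor that is held in the cytoplasm and degraded through KEAP1 until oxidants or electrophiles release it. It then binds antioxidant response elements (AREs) together with small MAF proteins and induces enzymes such as the quinone reductase Nqo1, the thioredoxin reductase Txnrd1, the sulfiredoxin Srxn1 and the haem oxygenase Hmox1, as well as the cystine importer Slc7a11 and both subunits of glutamate-cysteine ligase (catalytic Gclc, modifier Gclm), the rate-limiting enzyme of glutathione synthesis. The metallothioneins Mt1 and Mt2 are small cysteine-rich proteins that bind zinc and copper and are induced through metal response elements (MREs) by the zinc-sensing factor MTF1. In brown adipocytes, in which thermogenic respiration produces reactive oxygen species, these systems keep the thiol balance.

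The 3 oligonucleotides that define the groups are shown because every LNA comparison rests on them. They are written 5′ to 3′ and their chemistry is not marked.
ctrlA: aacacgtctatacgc
LNA1: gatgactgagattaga
LNA2: aagtagcacggcgttg
In the GENCODE M21 transcripts, the perfect complement of LNA1 occurred in 1 transcript, that of Gm15551 (535 bases, chromosome 3, 126667329 to 126669044, minus strand, GRCm38), at bases 347 to 362. LNA2 likewise matched this transcript alone, at bases 241 to 256, and ctrlA matched none. In the transcripts of the 10 members, the longest stretch complementary to any of the 3 LNAs was 9 bases (LNA1 in Txnrd1 and LNA2 in Srxn1). Introns and matches with mismatches were not searched.

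The regions upstream of Mt1, Mt2 and Slc7a11 are shown because both metallothioneins moved together in these libraries and Slc7a11 was the member that fell. Each is the 250 bases before the RefSeq start (GRCm38.p6), read 5′ to 3′ on the strand of the gene. Capitals mark the MRE core (TGCACNC or TGCGCNC, either strand) in the metallothioneins and the ARE core (TGACNNNGC or TGATNNNGC, either strand) in Slc7a11.
Mt1, chr8:94178839-94179088, plus strand: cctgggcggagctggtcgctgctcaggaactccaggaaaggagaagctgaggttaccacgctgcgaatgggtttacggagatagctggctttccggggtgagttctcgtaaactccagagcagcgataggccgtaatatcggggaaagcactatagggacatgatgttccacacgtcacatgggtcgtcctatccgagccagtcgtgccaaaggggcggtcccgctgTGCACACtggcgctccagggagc
Mt2, chr8:94172368-94172617, plus strand: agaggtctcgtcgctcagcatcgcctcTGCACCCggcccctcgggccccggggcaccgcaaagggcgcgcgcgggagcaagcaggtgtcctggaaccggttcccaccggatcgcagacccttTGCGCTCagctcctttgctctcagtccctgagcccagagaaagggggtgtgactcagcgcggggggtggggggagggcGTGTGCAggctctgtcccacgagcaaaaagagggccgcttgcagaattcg
Slc7a11, chr3:50443614-50443863, minus strand: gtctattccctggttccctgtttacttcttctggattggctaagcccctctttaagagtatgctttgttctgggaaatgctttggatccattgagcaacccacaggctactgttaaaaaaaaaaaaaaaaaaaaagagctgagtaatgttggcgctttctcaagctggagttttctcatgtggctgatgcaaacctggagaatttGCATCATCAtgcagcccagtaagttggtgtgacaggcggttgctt
The Mt2 window held 3 MRE cores and also 1 ARE core, and the Mt1 window held 1 MRE core. A further 4 MRE cores lay within the first 112 bases of the longest-reaching Mt1 transcript of GENCODE, which starts upstream of the other annotated Mt1 transcripts. Of 32851 such windows of all genes, 21.4% held an MRE core and 16.3% an ARE core. An ARE core was also found upstream of Nfe2l2, of Gclm (where it overlapped 1 of 2 MRE cores) and of 1 of the 3 Txnrd1 starts. No ARE core was found upstream of Nqo1 and Srxn1, but the Srxn1 window held 1 MRE core. The cAMP response element TGACGTCA, present in 1.55% of windows, was found in none of the windows of members. Hmox1 and Gclc were not searched.

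Gm15551 itself was barely detected. Its counts summed to 42 over the 6 ctrlA libraries, 24 over the 6 LNA1 libraries and 27 over the 6 LNA2 libraries, with overlapping ranges of 0.129 to 0.794, 0.0794 to 1.02 and 0.0700 to 1.07 CPM (counts scaled to 1000000 per library), so that the knockdown could not be checked firmly in these libraries. The study itself reported that both LNAs robustly lowered Gm15551 on day 7 against the control LNA. Total counts ranged from 9167560 to 19723021 per library. The 6 libraries of number 2 stood apart from the other 12: mitochondrial genes took 7.86% to 9.79% of their counts against 2.56% to 4.97%, and CT010467.1, which encodes ribosomal RNA, 2.88% to 14.3% against 0.285% to 1.04%. Of the 9 adipocyte markers, general ones were high (Fabp4 7081 to 20719 CPM, Adipoq 262 to 771 CPM), while the brown markers Ucp1 (0.621 to 16.5 CPM) and Cidea (3.40 to 25.4 CPM) were low, and the leukocyte marker Ptprc, the macrophage marker Adgre1 and the endothelial marker Kdr were at or near 0 in every library.

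At the level of the group, the metallothioneins were by far the most abundant members. Per kilobase of annotated exon, Mt2 averaged 961 ± 446 and Mt1 824 ± 346 CPM per kb over the 18 libraries (SD, n = 18 here and in the following order). Hmox1 followed at 80.3 ± 22.2, Srxn1 at 43.5 ± 9.95, Gclc at 29.6 ± 9.42, Nfe2l2 at 20.98 ± 4.10, Txnrd1 at 18.8 ± 2.83, Gclm at 9.53 ± 1.20, Nqo1 at 7.82 ± 3.58 and Slc7a11 at 1.53 ± 0.488 CPM per kb. Neighbours in this order whose ranges of mean ± SD overlapped were Mt2 and Mt1, Srxn1 and Gclc, Gclc and Nfe2l2, Nfe2l2 and Txnrd1, and Gclm and Nqo1. The exon length of Slc7a11 is 13922 bases over all annotated transcripts, which lowers its value on this scale. It is 1246 bases for Mt1 and 588 bases for Mt2, and on the CPM scale, which takes no account of length, Mt1 (1027 ± 431) lay above Mt2 (565 ± 262), so that the order of these genes rests on the lengths used. The order also differed between groups: in both LNA2 groups the mean of Nqo1 was above that of Gclm (10.4 against 10.35 unstimulated, 10.7 against 9.76 stimulated, in CPM per kb) and that of Txnrd1 was above that of Nfe2l2 (19.4 against 19.37 and 21.5 against 20.3). All members lay above the floor that 3 counts give in a library (0.170 to 0.306 CPM); the lowest single value was 5.47 CPM for Nqo1.

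**Figure D1:**
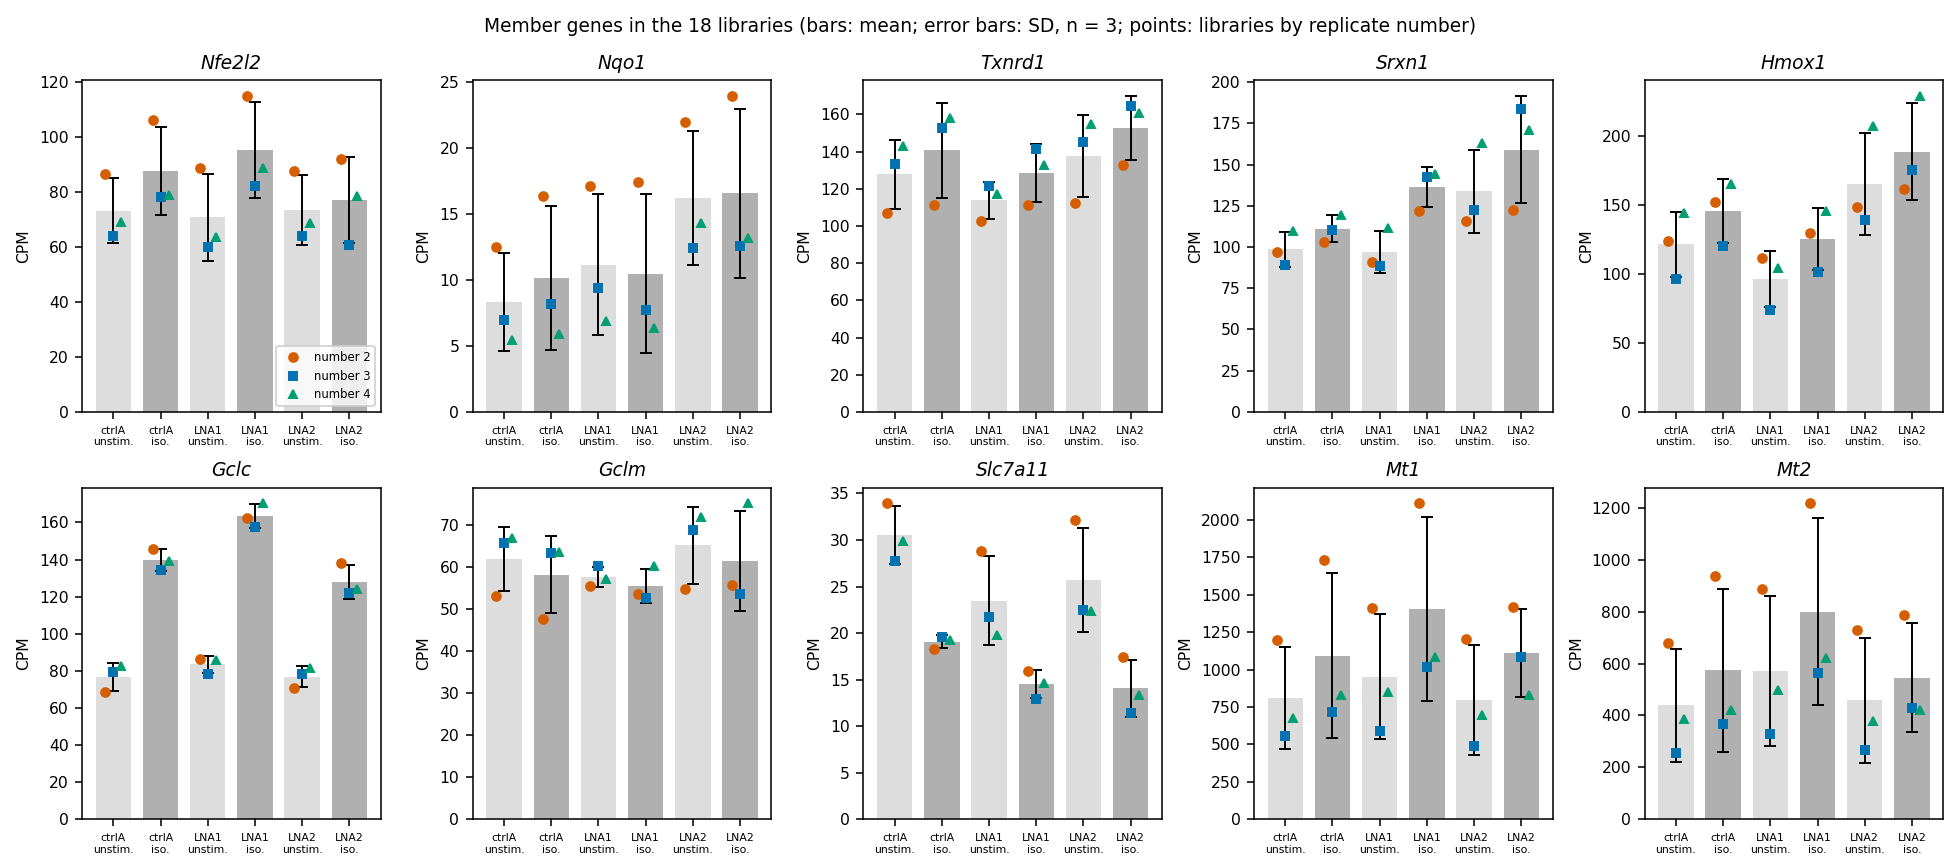
CPM (vertical axis, from 0) of each member in the 6 groups. Bars are means, error bars the SD (n = 3), and points the libraries by replicate number. Gclc lies higher and Slc7a11 lower with isoproterenol in each pair of bars, while for Mt1, Mt2 and Nqo1 the library of number 2 was the highest of its group throughout.

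To see how the members responded to β-adrenergic stimulation, the 9 stimulated libraries were compared with the 9 unstimulated ones, averaged over the LNAs. Gclc rose and Slc7a11 fell, and these were the only members called (adjusted p under 0.05 and an absolute log2 fold change over 0.5 in edgeR's quasi-likelihood test), 2 of 10 beside 3.20% of all genes tested. The median log2 fold change of the 10 members was 0.27 and that of all genes -0.002, with 8 of the 10 above 0. Transcripts of the enzyme that commits cysteine to glutathione and of the importer that supplies cystine thus moved in opposite directions. In such bulk libraries a lower number of expressing cells and less RNA per cell cannot be told apart.

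Gclc (ENSMUSG00000032350.9, chromosome 9, 77754535 to 77794485, plus strand) encodes the catalytic subunit. With ctrlA it stood at 68.4, 79.6 and 82.5 CPM in the unstimulated libraries of numbers 2, 3 and 4, and at 145.9, 134 and 139 CPM with isoproterenol. With LNA1 the values were 86.5, 78.2 and 85.9 CPM without and 162, 157 and 170.3 CPM with isoproterenol. With LNA2 they were 70.7, 78.2 and 81.7 CPM and 138, 122 and 124 CPM. All 9 stimulated libraries lay above all 9 unstimulated ones, in the levels shown by group, and the means were 79.1 ± 6.19 and 143.8 ± 16.8 CPM (SD, 9 libraries each). The log2 fold change was 0.86 (SE of 0.067, 95% interval 0.71 to 1.00, edgeR adjusted p = 1.18e-06), a fold of 1.81, and the gene was higher in 9 of 9 pairs of the same number. It was 0.86 (SE 0.12) with ctrlA, 0.97 (SE 0.12) with LNA1 and 0.74 (SE 0.12) with LNA2. Gclc ranked at the 97.7th percentile of log2 fold changes. Pair counts and non-overlap of arms were not counted over all genes, here and below, so no background share stands beside them.

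Slc7a11 (ENSMUSG00000027737.10, chromosome 3, 49892526 to 50443614, minus strand) encodes the light chain of the cystine-glutamate antiporter. In ctrlA cells it was measured at 33.9, 27.7 and 29.9 CPM without and 18.3, 19.6 and 19.3 CPM with isoproterenol, in numbers 2, 3 and 4. In LNA1 cells the values were 28.9, 21.7 and 19.8 CPM and 16.0, 12.9 and 14.7 CPM. In LNA2 cells they were 32.1, 22.5 and 22.3 CPM and 17.5, 11.5 and 13.4 CPM. The arms did not overlap, although the lowest unstimulated library (LNA1, number 4) and the highest stimulated one (ctrlA, number 3) nearly met. The mean went from 26.6 ± 5.07 to 15.9 ± 2.95 CPM (SD, 9 libraries each), a log2 fold change of -0.74 (SE of 0.11, 95% interval -0.98 to -0.51, edgeR adjusted p = 0.000802) or 0.597 times, with 0 of 9 pairs higher. Within ctrlA, LNA1 and LNA2 the fitted change was -0.68, -0.69 and -0.86 (SE 0.19 each) and was not called (edgeR adjusted p = 0.222, 0.177 and 0.0806), beside 0.488%, 0.702% and 0.395% of all genes. With the replicate number as a block, it was called within each (-0.67, -0.69 and -0.86, edgeR adjusted p = 0.00126, 0.00122 and 0.000207), beside 4.03%, 5.04% and 4.25% of all genes. Gclc was called within each LNA in both fits. Some 2.84% of the 31-base words of the Slc7a11 transcripts also occur in other genes, most often in AC157548.1 (mean 264 counts against 274 for Slc7a11), so that its level is less certain.

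Gclm (ENSMUSG00000028124.15, chromosome 3, 122245557 to 122270732, plus strand), the modifier subunit of the same ligase as Gclc, did not follow it. It ranged from 53.1 to 71.9 CPM (median 60.2) without and from 47.6 to 75.1 CPM (median 55.6) with isoproterenol, with the arms overlapping almost fully. Its log2 fold change was -0.077 (SE of 0.096, 95% interval -0.28 to 0.13, edgeR adjusted p = 0.858). As a result, the ratio of Gclc to Gclm counts was 1.14 to 1.56 in the 9 unstimulated libraries and 1.65 to 3.06 in the 9 stimulated ones, without overlap. This ratio was chosen after the values were seen and carries no test. Some 5.61% of the 31-base words of the Gclm transcripts also occur in other genes, most often in Ppia (mean 10567 counts against 766 for Gclm), and its exons overlap those of Gm17494 on the opposite strand (mean 129 counts), so that its level is less certain.

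The metallothioneins Mt1 (ENSMUSG00000031765.8, chromosome 8, 94179082 to 94180327) and Mt2 (ENSMUSG00000031762.7, chromosome 8, 94172664 to 94173568), both on the plus strand and 5513 bases apart, were higher with isoproterenol in 9 of 9 pairs each. In ctrlA cells Mt1 went from 1195, 555 and 677 CPM to 1728, 720 and 832 CPM in numbers 2, 3 and 4. In LNA1 cells it went from 1409, 593 and 853 CPM to 2108, 1018 and 1085 CPM. In LNA2 cells the values were 1203, 492 and 693 CPM and 1416, 1083 and 831 CPM. Number 2 was the highest library of every group, and the spread between numbers exceeded the shift with stimulation, so that the arms overlapped. Over all, Mt1 averaged 852 ± 334 and 1202 ± 463 CPM (SD, 9 libraries each), a log2 fold change of 0.49 (SE of 0.26, edgeR adjusted p = 0.429), which was not called.

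With the replicate number as a block, which removes the shared level of each number, Mt1 was called (log2 fold change 0.51, SE of 0.082, edgeR adjusted p = 0.000195, and from 0.000195 to 0.632 over all alternatives tried). This made 3 members called, beside 7.00% of all genes. Mt2 ranged from 254 to 889 CPM (median 388) without and from 366 to 1216 CPM (median 562) with isoproterenol. Its log2 fold change was 0.37 (SE of 0.29, edgeR adjusted p = 0.687) without and 0.40 (SE 0.065) with the block, under the size limit, and ran from 0.20 to 0.55 over the alternatives, both extremes in fits without 1 library of number 2 (stimulated ctrlA and unstimulated LNA2). Within single LNAs, the block called Mt1 with LNA1 (0.56, SE of 0.14, edgeR adjusted p = 0.0171) and LNA2 (0.57, SE 0.14, adjusted p = 0.0194). It also called Mt2 with LNA1 (0.51, SE 0.11, adjusted p = 0.00656). These calls stood beside 5.04% of all genes with LNA1 and 4.25% with LNA2. With ctrlA the block called neither gene (Mt1 0.41, edgeR adjusted p = 0.103, and Mt2 0.37, adjusted p = 0.0540), beside 4.03% of all genes. Mt2 was not called with LNA2 (0.33, adjusted p = 0.0807). Without the block, neither gene was called within any LNA. The Mt1 pairs with LNA2 had log2 ratios of 0.24, 1.14 and 0.26 in numbers 2, 3 and 4. Exons of Mt2 overlap Gm45774 on the opposite strand (mean 74.9 counts against 7107 for Mt2). The ratio of Mt1 to Mt2 counts stayed between 1.59 and 2.52 over all 18 libraries.

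For the remaining members the shifts with isoproterenol were smaller. Nfe2l2 (chromosome 2, 75675513 to 75704641, minus strand) ranged from 60.1 to 88.9 CPM without and from 60.8 to 115 CPM with stimulation, a log2 fold change of 0.25 (SE of 0.12, edgeR adjusted p = 0.368). Srxn1 (chromosome 2, 152105516 to 152111376, plus strand), which reduces over-oxidised peroxiredoxins, ranged from 88.7 to 163 CPM and from 103 to 184 CPM, with 0.30 (SE 0.10, adjusted p = 0.118). Hmox1 (chromosome 8, 75093621 to 75100589, plus strand), which breaks down haem, ranged from 73.7 to 207 CPM and from 101.6 to 229 CPM, with 0.28 (SE 0.13, adjusted p = 0.328). The arms of each overlapped. Srxn1, Hmox1 and Txnrd1 were higher in 9 of 9 pairs and Nfe2l2 in 8 of 9, with no share of all genes counted for this. For Txnrd1 (chromosome 10, 82833951 to 82897712, plus strand), which keeps thioredoxin reduced, the log2 fold change was 0.15 (SE of 0.10, edgeR adjusted p = 0.591), and for Nqo1 (chromosome 8, 107388225 to 107403206, minus strand) 0.072 (SE 0.28, adjusted p = 0.973). With the block and no size limit, 8 of 10 members passed, all but Nqo1 and Gclm, 7 of them upwards, beside 26.4% of all genes. The sizes of Nfe2l2, Hmox1, Txnrd1 and Srxn1 in that fit were 0.25, 0.28, 0.15 and 0.31 on the log2 scale.

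**Figure D2:**
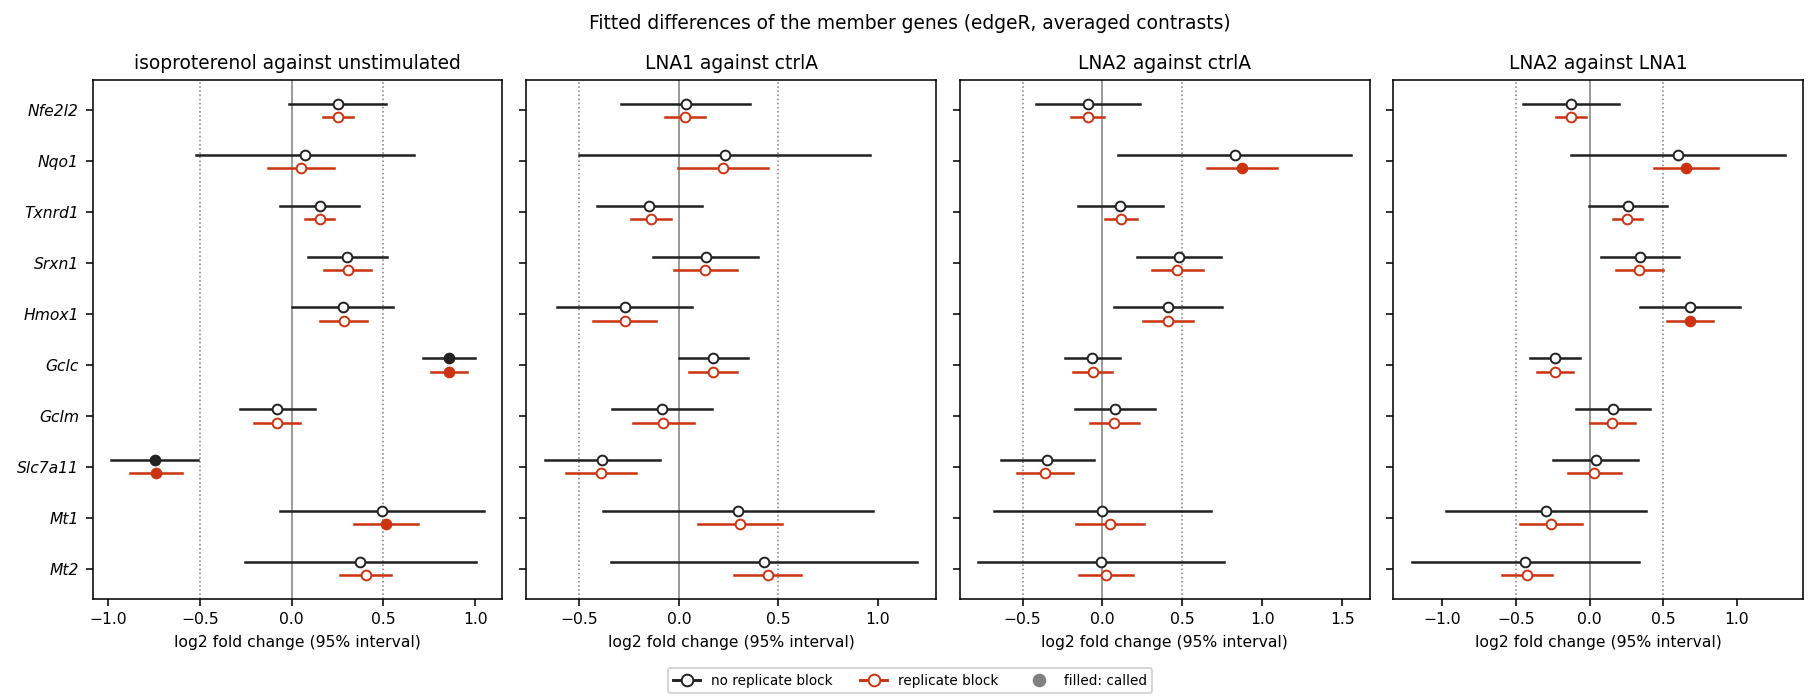
Log2 fold change (horizontal axis) of each member with its 95% interval in the 4 averaged comparisons, fitted without (black) and with (red) the replicate number as a block. Filled points were called and dotted lines mark the size limit of 0.5. Gclc and Slc7a11 were called with isoproterenol in both fits, and the calls of Mt1, Nqo1 and Hmox1 appear in the blocked fit.

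Next, the response to each LNA was read against ctrlA, taking both stimulation states together (6 libraries a side). The 6 ctrlA libraries serve both comparisons. With LNA1, 0 of 10 members were called beside 0.442% of all genes, and 1 of 10 (Slc7a11) had an unadjusted p under 0.05 beside 6.01% of all genes. DESeq2 called 0 members as well, and 133 of all genes. Slc7a11 was lower with LNA1 in 6 of 6 pairs (log2 fold change -0.39, SE of 0.14, edgeR adjusted p = 0.451), from 24.8 ± 6.59 to 19.0 ± 5.83 CPM (SD, 6 libraries each). Hmox1 and Txnrd1 were also lower in 6 of 6 pairs, at -0.27 (SE of 0.16, edgeR adjusted p = 1) and -0.15 (SE 0.12, adjusted p = 1). Mt1 and Mt2 were higher in 6 of 6 pairs, at 0.30 (SE of 0.32, edgeR adjusted p = 1) and 0.43 (SE 0.36, adjusted p = 1). Over the alternatives, most of which leave out 1 library, these values ran from 0.090 to 0.55 and from 0.19 to 0.70. The block left the count of called members at 0 beside 2.43% of all genes. Without the size limit, Hmox1, Slc7a11 and Mt2 passed in the blocked fit (-0.27, -0.39 and 0.45 on the log2 scale), 3 of 10 beside 7.80% of all genes. In stimulated cells alone, the block called Mt2 with LNA1 (0.52, SE of 0.11, edgeR adjusted p = 0.0192), 1 of 10 beside 1.45% of all genes, and without the block 0 members were called beside 0.0134%. In unstimulated cells 0 members were called by either fit, beside 0.602% of all genes with the block.

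With LNA2, no member was called in the fit without a block, 0 of 10 beside 1.42% of all genes. At an unadjusted p under 0.05 there were 4 members, Nqo1, Hmox1, Srxn1 and Slc7a11, beside 10.6% of all genes, and DESeq2 called 0 members and 338 of all genes. Nqo1, which detoxifies quinones, stood at 12.5, 7.00 and 5.47 CPM in unstimulated and 16.3, 8.17 and 5.92 CPM in stimulated ctrlA cells, in numbers 2, 3 and 4. With LNA2 it stood at 21.97, 12.4 and 14.3 CPM and at 23.9, 12.6 and 13.1 CPM. Each LNA2 library exceeded the ctrlA library of its own number and stimulation, whereas the arms overlapped because the number 2 libraries of ctrlA reached the level of the others with LNA2.

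The log2 fold change of Nqo1 was 0.83 (SE of 0.34, edgeR adjusted p = 0.363), from 9.23 ± 4.30 to 16.4 ± 5.16 CPM (SD, 6 libraries each). With the block it was 0.87 (SE of 0.10, edgeR adjusted p = 3.36e-05, and from 3.36e-05 to 0.613 over all alternatives), which called Nqo1 as 1 of 10 members beside 5.53% of all genes. Without the 6 libraries of number 2 it was 1.00. Srxn1 stood at 97.1, 89.0 and 109.9 CPM in unstimulated and 103, 110 and 119.7 CPM in stimulated ctrlA cells, against 116, 123 and 163 CPM and 122, 184 and 171 CPM with LNA2. Only 1 of 6 LNA2 libraries lay under the highest ctrlA library. Its log2 fold change of 0.48 (SE of 0.12, edgeR adjusted p = 0.0748) was just under the size limit, and it was called when the stimulated LNA2 library of number 2 was left out (0.57).

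Hmox1 was 96.7 to 165 CPM with ctrlA (median 134) and 139.5 to 229 CPM with LNA2 (median 169), a log2 fold change of 0.41 (SE of 0.16, edgeR adjusted p = 0.314). Txnrd1 was higher by 0.11 (SE of 0.12, edgeR adjusted p = 0.927). Nqo1, Hmox1, Srxn1 and Txnrd1 were each higher in 6 of 6 pairs, and Slc7a11 was lower in 6 of 6 (-0.34, SE of 0.14, edgeR adjusted p = 0.321). Mt1 and Mt2 lay at -0.0006 and -0.0081, with 3 of 6 pairs on each side. In the blocked fit without the size limit, 4 of 10 members passed beside 20.6% of all genes, namely Nqo1, Hmox1 (0.41), Srxn1 (0.47) and Slc7a11 (-0.36). Within single states, the block called Nqo1 in unstimulated cells (1.008, SE of 0.15, edgeR adjusted p = 0.000827), beside 2.79% of all genes. In stimulated cells it called Nqo1 (0.74, SE of 0.14, edgeR adjusted p = 0.00412) and Srxn1 (0.51, SE 0.11, adjusted p = 0.00561), beside 5.51% of all genes. Without the block, 0 members were called in unstimulated and in stimulated cells, beside 0.194% and 0.207% of all genes.

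As both LNAs target the same transcript, LNA2 was also compared with LNA1 directly. No member was called without the block, 0 of 10 beside 0.923% of all genes, with 3 members at an unadjusted p under 0.05 beside 9.20% of all genes. DESeq2 called 1 member, which was Hmox1, and 232 of all 14949 genes. Hmox1 stood at 112, 73.7 and 104 CPM in unstimulated and 129.6, 101.6 and 145.7 CPM in stimulated LNA1 cells, in numbers 2, 3 and 4. With LNA2 the values were 148, 139.5 and 207 CPM and 162, 175.8 and 229 CPM. Only the stimulated LNA1 library of number 4 reached into the LNA2 range. The log2 fold change was 0.68 (SE of 0.16, 95% interval 0.34 to 1.02, edgeR adjusted p = 0.0627), with 6 of 6 pairs higher.

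With the block, Hmox1 (0.68, SE of 0.074, edgeR adjusted p = 2.47e-05, and from 2.47e-05 to 0.185 over all alternatives) and Nqo1 (0.65, SE 0.10, adjusted p = 0.000559, and from 0.000559 to 0.960) were called, 2 of 10 beside 4.11% of all genes. Without the size limit, 6 of 10 passed beside 15.4% of all genes. These were Hmox1, Nqo1, Srxn1 (0.34) and Txnrd1 (0.26), which were higher with LNA2, and Gclc (-0.23) and Mt2 (-0.42), which were lower. Mt2 was lower with LNA2 than with LNA1 in 6 of 6 pairs, and its log2 fold change ran from -0.66 to -0.20 over the alternatives. Slc7a11 lay at 0.041 without the block (SE 0.14, 95% interval -0.25 to 0.33).

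**Figure D3:**
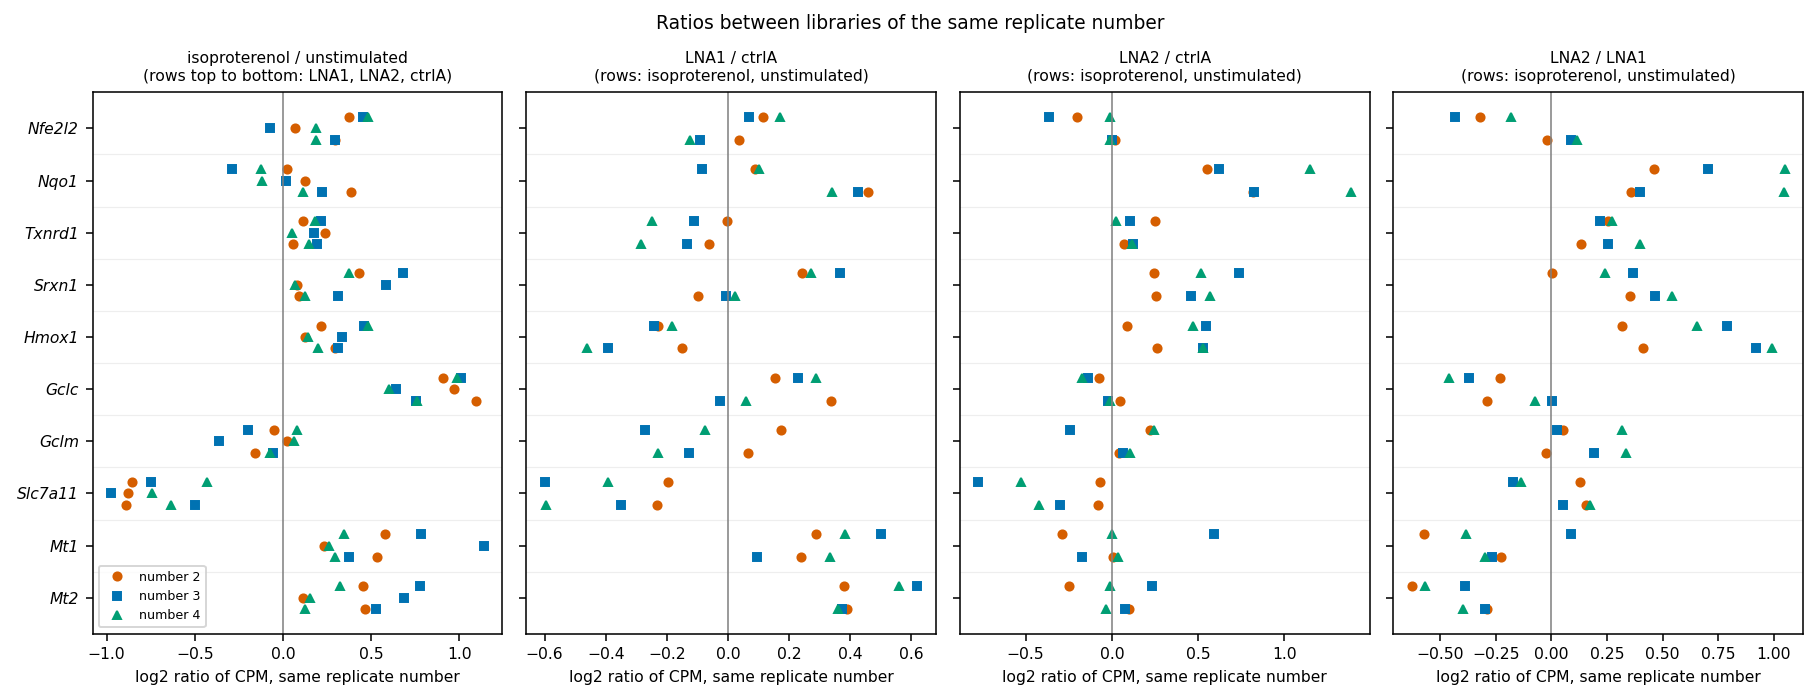
Log2 ratio of CPM (horizontal axis) between libraries of the same replicate number, for each member and comparison; each point is 1 pair. All 9 isoproterenol pairs lie above 0 for Gclc and below 0 for Slc7a11, and all 6 LNA2 to LNA1 pairs lie above 0 for Nqo1, Hmox1, Srxn1 and Txnrd1.

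Whether the response to isoproterenol depended on the LNA was tested as an interaction. For LNA1 and for LNA2 against ctrlA, 0 of 10 members were called, beside 0% of all genes (0 of 14949). At an unadjusted p under 0.05 there were 105 and 116 genes (0.702% and 0.776% of all genes) and 0 members each. DESeq2 called 0 and 2 genes, none of them members. The interaction of Gclc was 0.10 with LNA1 (SE 0.16, 95% interval -0.24 to 0.45) and -0.13 with LNA2 (SE 0.16, 95% interval -0.47 to 0.22), and that of Slc7a11 was -0.014 (SE 0.27) and -0.19 (SE 0.27). Differences within the intervals given for Gclc were therefore not excluded. With the block, 0 genes were called again. An unadjusted p under 0.05 was then reached by 393 and 807 genes (2.63% and 5.4% of all genes), with 1 member among the former, Srxn1 (0.32, SE 0.15). A joint test over the 6 groups at an adjusted p under 0.001 called Gclc alone (adjusted p = 5.41e-05 in edgeR), 1 of 10 beside 0.455% of all genes. It called 7 of 10 with the block, all but Gclm, Txnrd1 and Mt1, beside 8.93% of all genes.

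The members differed in what their spread over the 18 libraries went with. For Gclc, stimulation accounted for 90.9% of the sum of squares of log2 CPM and the replicate number for 0.474%. Stimulation also took the largest share for Slc7a11 (66.6%), and the LNA that for Hmox1 (51.0%) and Srxn1 (40.4%). The replicate number took the largest share for Mt2 (74.8%), Mt1 (66.3%), Nfe2l2 (62.1%), Nqo1 (59.6%), Txnrd1 (57.8%) and Gclm (49.3%). Mt1 averaged 1510 ± 352 CPM in the libraries of number 2, 743 ± 250 in number 3 and 829 ± 147 in number 4 (SD, 6 libraries each), and Nqo1 18.2 ± 4.12, 9.54 ± 2.41 and 8.68 ± 3.95 CPM. Txnrd1 lay the other way, with 113 ± 10.3 CPM in number 2 against 143 ± 14.8 and 144 ± 16.8 CPM. The higher mitochondrial and ribosomal shares of the number 2 libraries moved with these levels and their part in them was not tested.

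**Figure D4:**
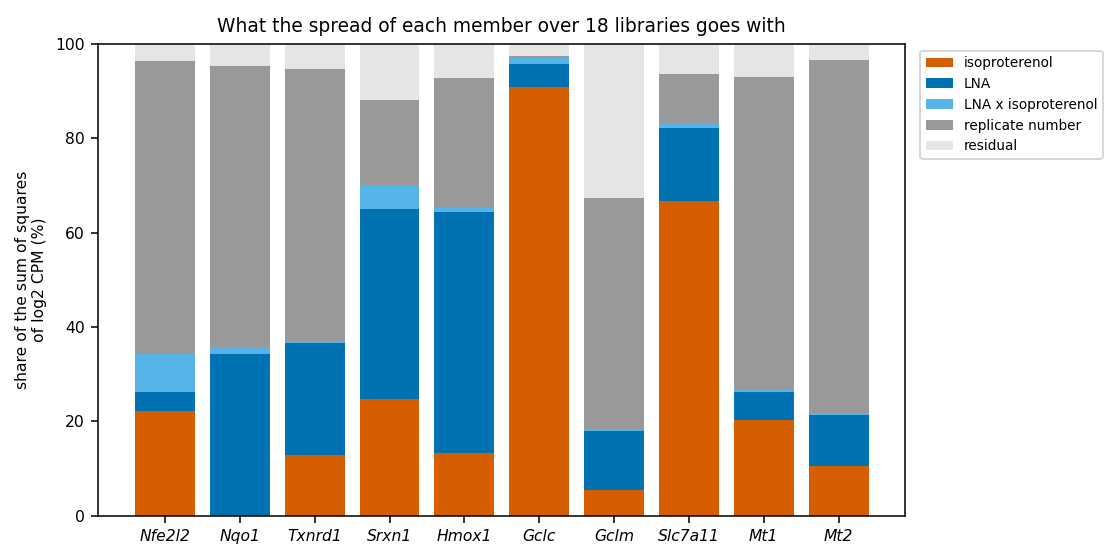
Share of the sum of squares of log2 CPM over 18 libraries (vertical axis, percent) that goes with isoproterenol, the LNA, their interaction, the replicate number and the residual, for each member. Isoproterenol takes 90.9% for Gclc and 66.6% for Slc7a11, and the replicate number 74.8% for Mt2.

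After the mean of each replicate number was taken off, the levels of members were compared pair by pair (Pearson r of log2 CPM over 18 libraries, which share the groups, given as a description). Mt1 and Mt2 had an r of 0.93, Nfe2l2 and Gclc 0.85, and Gclc and Mt1 0.82. Hmox1 and Txnrd1 had 0.89, Hmox1 and Srxn1 0.79, and Nqo1 and Hmox1 0.67. Srxn1 also had 0.45 with Gclc, 0.55 with Mt1 and -0.71 with Slc7a11. Gclm ran opposite to Mt2 (-0.69) and Mt1 (-0.69) and had 0.30 with Hmox1. Slc7a11 ran opposite to Mt1 (-0.86) and Gclc (-0.85). Gclc and its partner Gclm had -0.40, and Hmox1 and Gclc 0.25. Without removing the mean of each number, r was 0.97 for Mt1 and Mt2, 0.52 for Nfe2l2 and Gclc, and 0.47 for Gclc and Mt1. It was 0.49 for Hmox1 and Txnrd1, 0.73 for Hmox1 and Srxn1, and 0.31 for Nqo1 and Hmox1. Srxn1 then had 0.43 with Gclc, 0.043 with Mt1 and -0.71 with Slc7a11. Gclm had -0.73 with Mt2, -0.76 with Mt1, 0.31 with Hmox1 and -0.25 with Gclc. Slc7a11 had -0.21 with Mt1 and -0.80 with Gclc, and Hmox1 and Gclc had 0.25. Some of these values therefore depend on that step, while others hardly moved.

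**Figure D5:**
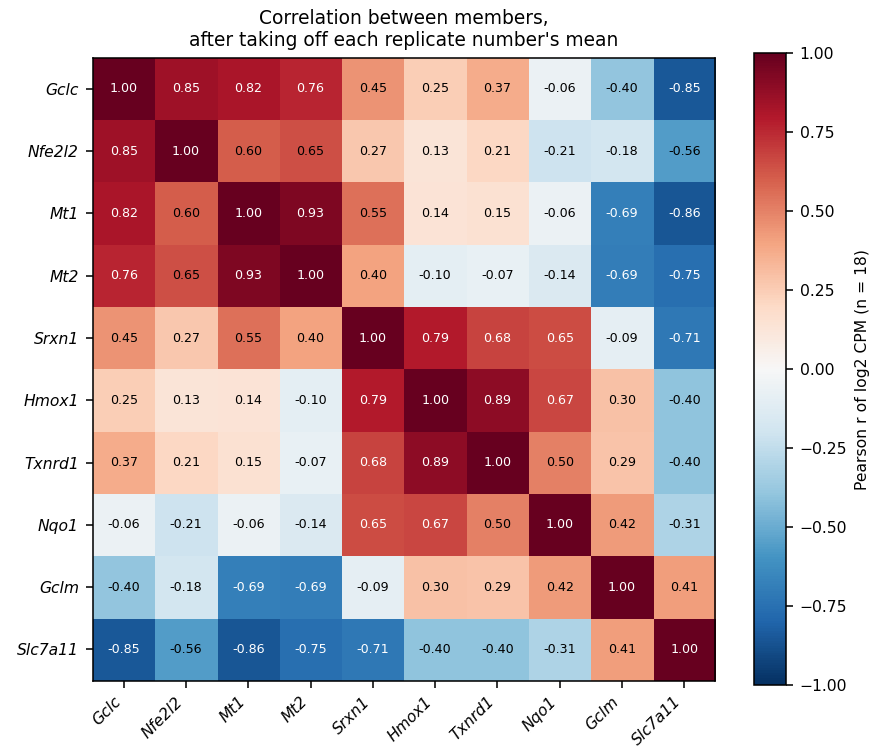
Pearson r between members over 18 libraries on log2 CPM, after the mean of each replicate number was removed; red is positive and blue negative. Mt1 and Mt2 reach 0.93 and Hmox1 and Txnrd1 0.89, while Slc7a11 and Mt1 stand at -0.86.

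On the same scale, the genes outside the set whose pattern was most like each member were sought among 10403 genes. For Gclc these were Sphk1 (r 0.98), a sphingosine kinase, and Ecm1 (0.98), and for Slc7a11 Nsdhl (0.98), an enzyme of cholesterol synthesis, and Scd3 (0.97), a stearoyl-CoA desaturase. Isg20 was among the closest pair for both Mt1 (0.94) and Mt2 (0.91), next to Tnfrsf1b (0.92) and Sema6b (0.94). Hmox1 was followed most closely by Naa25 (0.95) and Aen (0.93), Srxn1 by Sbsn (0.96) and AI413582 (0.96), and Nqo1 by Ccp110 (0.94) and Zfp365 (0.94). Txnrd1 was closest to Nploc4 (0.93) and Mapkapk3 (0.92), Nfe2l2 to Pi15 (0.93) and Chd1 (0.93), and Gclm to Ankrd26 (0.90) and Mfsd1 (0.90).

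The other genes of these pathways were counted in 5 lists. The 11 regulators of NRF2 (KEAP1 and its ligase, small MAF and BACH proteins and others) were all tested. Without the block, 0 were called with isoproterenol, LNA1, LNA2 or between the LNAs. The same held for 17 tested of 20 other glutathione genes and for 18 other antioxidant enzymes. The shares of all genes in these comparisons were 3.20%, 0.442%, 1.42% and 0.923%. With the block, 1 regulator was called with isoproterenol. It also called 2, 1, 2 and 1 of the glutathione genes in these comparisons, beside 7.00%, 2.43%, 5.53% and 4.11% of all genes. In the fit without the block, to which the following values belong, the median log2 fold changes of these lists with isoproterenol were 0.010, -0.075 and 0.090. Among 17 other NRF2 targets, 1 rose with isoproterenol, beside 3.20% of all genes, while the median of the list was -0.001 and 8 of 17 lay above 0. This was Ugdh, the UDP-glucose dehydrogenase, which went from 168 ± 31.6 to 271 ± 68.1 CPM (SD, 9 libraries each), a log2 fold change of 0.69 (SE of 0.16, edgeR adjusted p = 0.0219). In the same list 1 gene of 17 (1.42% and 0.923% of all genes in these comparisons), the epoxide hydrolase Ephx1, rose with LNA2 (0.69, SE of 0.14, edgeR adjusted p = 0.0163) and was higher with LNA2 than with LNA1 (0.78, SE 0.14, adjusted p = 0.0106). Ephx1 ranged from 62.5 to 94.2 CPM with ctrlA, from 53.1 to 92.5 CPM with LNA1 and from 106 to 134 CPM with LNA2, where the LNA2 libraries lay above all others. The list as a whole had a median of -0.047 with LNA2 and 7 of 17 genes above 0, and the other antioxidant enzymes had -0.052 and 5 of 18.

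Of 11 genes of zinc and metal handling, 8 were tested and 1 was called, the zinc importer Slc39a14, beside 3.20% of all genes with isoproterenol and 0.442% with LNA1. It was also the only 1 of the 8 above 0 with isoproterenol (median of the list -0.068). It stood at 40.3 to 54.2 CPM in unstimulated and 80.6 to 97.6 CPM in stimulated ctrlA cells, at 79.7 to 109 and 143 to 201 CPM with LNA1, and at 63.0 to 74.9 and 92.5 to 114 CPM with LNA2. It rose with isoproterenol (0.80, SE of 0.10, edgeR adjusted p = 0.000200) and with LNA1 (0.89, SE 0.12, adjusted p = 0.00619), and was lower with LNA2 than with LNA1 (-0.56, SE 0.12, adjusted p = 0.0420). Unlike Mt1 and Mt2, Slc39a14 was called without the block.

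Marker genes of other cells were summed by group. The summed level of the 5 macrophage markers was 8.23 to 12.8 CPM in unstimulated and 12.2 to 24.7 CPM in stimulated ctrlA cells, 11.9 to 15.5 and 19.4 to 30.2 CPM with LNA1, and 14.03 to 28.6 and 26.1 to 44.3 CPM with LNA2. Nearly all of it was Cd68 (7.83 to 42.4 CPM). Ptprc, Adgre1 and Lyz2, 3 of the 5, were at 0 in some libraries and at most 0.255, 0.203 and 0.355 CPM, whereas Csf1r reached 0.354 to 2.31 CPM with LNA2 (ctrlA 0.144 to 0.715 CPM, LNA1 0.0887 to 0.509 CPM). In stimulated cells its LNA2 libraries (1.14 to 1.77 CPM) lay above all those of ctrlA and LNA1. The part of Cd68 and Csf1r in the LNA2 results was not tested. The 3 endothelial markers summed to 1.67 to 3.90 CPM, with all groups overlapping.

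The 5 preadipocyte markers summed to 95.2 to 219 CPM in unstimulated and 137 to 248 CPM in stimulated ctrlA cells, 100.2 to 161 and 147 to 231 CPM with LNA1, and 113 to 198 and 175 to 299.8 CPM with LNA2. Most of this was Col1a1 (65.4 to 246 CPM), and Dlk1 and Cd34 reached at most 0.817 and 1.22 CPM. Pdgfra was higher with both LNAs without overlap, ranging from 10.4 to 16.4 CPM (LNA1) and from 9.78 to 14.5 CPM (LNA2) against 6.74 to 8.06 CPM (ctrlA). Ly6a averaged 9.46 ± 6.16 CPM in unstimulated and 30.8 ± 23.5 CPM in stimulated ctrlA cells (SD, n = 3), 10.2 ± 7.81 and 35.1 ± 25.4 CPM with LNA1, and 16.5 ± 9.76 and 39.7 ± 21.01 CPM with LNA2. The 9 adipocyte markers summed to 16591 to 28054 CPM without and 13485 to 21636 CPM with isoproterenol, and most of this was Fabp4 (7081 to 20719 CPM). Adipoq lay at 499.7 to 771 CPM without and at 262 to 487 CPM with isoproterenol, the arms not overlapping. The brown markers of the same list went the other way from Adipoq, with Ucp1 at 0.621 to 1.57 CPM without and 9.40 to 16.5 CPM with isoproterenol, and Cidea at 3.40 to 9.56 and 11.2 to 25.4 CPM, again without overlap. Ppargc1a lay at 41.9 to 63.1 and 55.5 to 92.0 CPM and was higher without overlap within each LNA. Not all general markers fell like Adipoq. Pparg averaged 161 CPM without and 165 CPM with isoproterenol in ctrlA cells, 160 and 157 CPM with LNA1, and 143 and 142 CPM with LNA2. Lpl averaged 4094 and 4397 CPM in ctrlA cells, 4162 and 4243 CPM with LNA1, and 4014 and 3669 CPM with LNA2. The part of these markers in the changes of members with the LNAs and isoproterenol was not tested.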

How the data were processed

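PolyA RNA libraries were made with a NEBNext Ultra II kit and sequenced as read pairs. Per the labels and the study's methods, adapters were cut with cutadapt and transcripts were quantified by Salmon on Gencode M22 (GRCm38). The authors deposited 1 table of estimated counts per gene from Salmon, which held only whole numbers (0 non-whole values); whether counting used strand is not given in the sources used here. All 18 columns were assigned to samples by name. Here, edgeR 4.0.16 (R 4.3.3) was run on these counts with TMM normalisation, filterByExpr (minimum count 10) and a quasi-likelihood fit with 1 mean per group. Adjusted p-values (Benjamini-Hochberg) covered all 14949 genes tested. A call needed an adjusted p under 0.05 and, except in interactions, an absolute log2 fold change over 0.5, or an adjusted p under 0.001 in the joint test. CPM are counts scaled to 1000000 of TMM-adjusted library size. The fit was tested on simulated data first. These held no effect of the replicate number, so that test does not bear on this part of the spread.

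All 10 members are named. From each pathway list, the genes called in an averaged comparison are named, at most 3 per list and comparison. For each member the most similar pair of genes with a mean of at least 5 CPM is given. Members, lists and tests were chosen with earlier results of these data known. Gene positions and exon lengths come from GENCODE M21 (GRCm38), which holds 99.5% of the listed genes, and upstream sequences from RefSeq (GRCm38.p6), which covered 8 of the 10 members; LNA sequences come from the study's list of oligonucleotides. Samples with the same replicate number were checked for pairing. In deviations from group means, all 45 pairs with the same number had a correlation over 0.1 (0.24 to 0.72, median 0.43). Of the pairs with other numbers, 29 of 90 did (-0.60 to 0.40, median -0.44). The numbers were therefore taken to pair the libraries. However, number 2 stood apart, which by itself can make libraries of the remaining numbers correlate with each other in such deviations. The check therefore cannot decide whether the remaining numbers are separate matched sets. The pair counts and the blocked fits rest on this check and on the numbers, as the labels give numbers only. The study's methods name no block for these libraries, hence the block was an alternative, together with DESeq2 1.42.0, its size factors, no filter, no size limit, the number 2 libraries left out and each library left out.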

Additional observations from a re-analysis of the deposited data

How the results depend on the processing

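The calls of Gclc and Slc7a11 with isoproterenol held in every alternative tried, including all 18 fits without 1 library (0.83 to 0.87 for Gclc and -0.80 to -0.68 for Slc7a11). The number of members called with isoproterenol was 2 or 3 throughout, and 3 with the replicate block and without number 2, Mt1 being added in both. For LNA2 against ctrlA it moved from 0 to 1 with the replicate block, beside 5.53% of all genes. It moved to 2 (Nqo1 and Srxn1) without the 6 libraries of number 2, beside 738 of 14979 genes tested. Without 1 library it was 0 to 1, beside 113 to 262 of all genes. The 1 was Srxn1 without the stimulated LNA2 library of number 2. For LNA2 against LNA1 it moved from 0 to 2 with the replicate block (4.11% of all genes) and to 1 with DESeq2 (232 of 14949 genes). Without number 2 it moved to 2 (Nqo1 and Hmox1), beside 443 of 14979 genes tested. In the joint test it moved from 1 to 7 with the replicate block, beside 0.455% and 8.93% of all genes. With DESeq2 it was 2, beside 556 of 14949 genes. The cause was not tested. The replicate block changed no other call of a member in these comparisons or in the interactions. The 7 comparisons within 1 LNA or 1 stimulation state each held 10 members and 14949 genes. In them the block added 10 calls of members to 3 and lost 0. The calls over all genes, summed over the 7, went from 299 to 3538. Per comparison these were 0% to 0.702% of all genes without the block and 0.602% to 5.51% with it. Over all genes, the block raised the calls with isoproterenol from 479 to 1046, with LNA1 from 66 to 364, with LNA2 from 213 to 826, between the LNAs from 138 to 615 and in the joint test from 68 to 1335. DESeq2 gave 133 with LNA1, 338 with LNA2, 232 between the LNAs and 556 in the joint test. Without number 2, where 14979 genes were tested, there were 726, 180, 738, 443 and 111, in the order given for the block. Signs turned only for values that were not called. With the replicate block, Mt1 and Mt2 with LNA2 became 0.045 and 0.023. Without number 2, Nqo1 with isoproterenol became -0.035, Mt1 and Mt2 with LNA2 became 0.15 and 0.087, and Slc7a11 between the LNAs became -0.019. Without 1 library, the signs of the following turned in some fits: Nqo1 with isoproterenol (-0.11 to 0.23), Nfe2l2 and Nqo1 with LNA1 (-0.066 to 0.12 and -0.055 to 0.49), Gclm, Mt1 and Mt2 with LNA2 (-0.0087 to 0.15, -0.20 to 0.25 and -0.25 to 0.27) and Slc7a11 between the LNAs (-0.045 to 0.14). All members lay above the floor of 3 counts, the lowest at 5.47 CPM, but Gm15551 was near it. The part of depth in the calls was not tested.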

Other observations

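With the replicate number as a block, 6 further genes of the pathway lists were called that the fit without it did not call, here named after their values were seen. Over the 5 lists, the block called 5 of 71 genes tested with isoproterenol (7.04%) and 4 of 71 with LNA2 (5.63%), beside 7.00% and 5.53% of all genes. The counts were 2 of 71 with LNA1 (2.82%) and 3 of 71 between the LNAs (4.23%), beside 2.43% and 4.11%, so that these shares are near the background. With isoproterenol, the NRF2 competitor Bach2 fell by 0.55 and the glutaredoxin Glrx fell by 0.52 on the log2 scale, while Oplah, the 5-oxoprolinase of the glutathione cycle, rose by 0.58 (SE 0.11, 0.052 and 0.099). With LNA2, the glutathione transferase Gsta4 rose by 0.95 (SE 0.24) from a low level (mean 0.892 CPM), the NRF2 target Osgin1 by 0.52 (SE 0.10) and the gamma-glutamyltransferase family member Ggt7 by 0.95 (SE 0.20). Ggt7 also rose with LNA1, by 0.80 (SE 0.20). Gsta4 was higher with LNA2 than with LNA1 by 1.27 (SE 0.26). None of these was called in the fit without the block.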
